A study of Mus musculus with 12 samples.

Results

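The genes described here encode the subunits of the mitochondrial respiratory chain and ATP synthase, from both the nuclear and the mitochondrial genome. They were chosen by symbol: Nduf genes of complex I, Sdha to Sdhd of complex II, Uqcr genes of complex III, Cox4 to Cox8 genes of complex IV, Atp5 genes of complex V, and the mt-Nd, mt-Cytb, mt-Co and mt-Atp genes, with rows named as pseudogenes left out. The rule gave 102 of the 25192 genes in the count table, 89 of them nuclear and 13 mitochondrial. Ndufa4 and Ndufa4l2 carry complex I names but were counted with complex IV, to which the Ndufa4 protein belongs.

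Poly(A) RNA was sequenced from a macrophage-like mouse line, RAW264.7, in 3 groups of 4 libraries. The untreated group received nothing, the LPS group received lipopolysaccharide, a bacterial cell wall component that activates macrophages, at 1 µg/mL for 24 h, and the ferulic acid group received 10 µM ferulic acid, a plant phenolic acid, for 12 h before the same LPS exposure. No group received ferulic acid without LPS. Counted reads per library ranged from 34261236 to 48446195 in the untreated group, from 35866432 to 47276784 in the LPS group and from 32548423 to 49961581 in the ferulic acid group. All 3 groups came from the same line, and the summed level of 10 macrophage marker genes was 4530 to 5003 CPM (read counts relative to library size, here scaled by the trimmed mean of M-values, TMM) in untreated libraries. It was 3276 to 3544 in the LPS group and 3046 to 3490 in the ferulic acid group, although of 9 markers tested 5 were higher and 4 lower with LPS. Ferulic acid libraries 1 and 4 stood apart from the other 6 LPS-treated libraries on the second principal component, at -35.7 and -54.1 against values from 4.90 to 32.3. In these bulk samples, a change in RNA per cell and a change in the share of cells cannot be told apart.

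The respiratory chain passes electrons from NADH, through complex I, and from succinate, through complex II, to ubiquinone, complex III, cytochrome c and finally oxygen at complex IV, and ATP synthase, complex V, uses the resulting proton gradient. Mitochondrial DNA encodes a small set of hydrophobic core subunits, transcribed as long polycistronic RNAs that are cut into single mRNAs, and all subunits of complex II and most of the others are nuclear. Activated mouse macrophages are known to shift from oxidative phosphorylation towards glycolysis and to accumulate succinate, and complex II oxidises it.

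With LPS, subunit mRNAs from the nucleus and from mitochondrial DNA mostly moved in opposite directions on the TMM scale, taken gene by gene. Of the 98 subunit genes that passed a filter on low counts, 75 were higher and 10 were lower than in untreated cells (edgeR quasi-likelihood test, Benjamini-Hochberg adjusted p under 0.05). The background was high: 73.8% of all 14065 tested genes were called, 35.6% higher and 38.3% lower. LPS and untreated libraries did not overlap for 75.3% of all tested genes and for 83 of the 98 subunit genes. Between the ferulic acid and untreated groups this held for 68.2% of all tested genes and 77 subunit genes. Of 85 tested nuclear genes, 74 were higher and 3 lower, with a median log2 fold change of 1.10 against -0.10 over all tested genes. Of 13 mitochondrial genes, 1 was higher and 7 lower, with a median of -1.15. Their summed level was nevertheless higher, at 25939 ± 2183 CPM (SD, n = 4) in untreated and 42274 ± 6712 (SD, n = 4) in LPS libraries. The 1 higher gene, mt-Co1, made up 13773 and 37637 CPM of these means. As a share of counted reads the sum was 3.93% ± 0.258 (SD, n = 4) and 3.43% ± 0.458 (SD, n = 4), with overlapping ranges.

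The size of the nuclear rise depended on the scaling. TMM factors were 1.49 to 1.55 in untreated and 0.764 to 0.854 in LPS libraries. With library size scaling alone, the median over all tested genes was -0.99 and that of nuclear subunit genes was 0.20, with 34 subunit genes higher and 24 lower where 17.5% of all genes were higher and 59.1% lower. The mt-Nd genes and mt-Cytb had a median of -1.94 with TMM factors and -2.85 with library size scaling. Summed over all 89 nuclear genes, the subunit mRNAs took 1.35% ± 0.126 (SD, n = 4) of counted reads in untreated, 1.55% ± 0.0489 (SD, n = 4) in LPS and 1.70% ± 0.247 (SD, n = 4) in ferulic acid libraries.

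**Figure D1:**
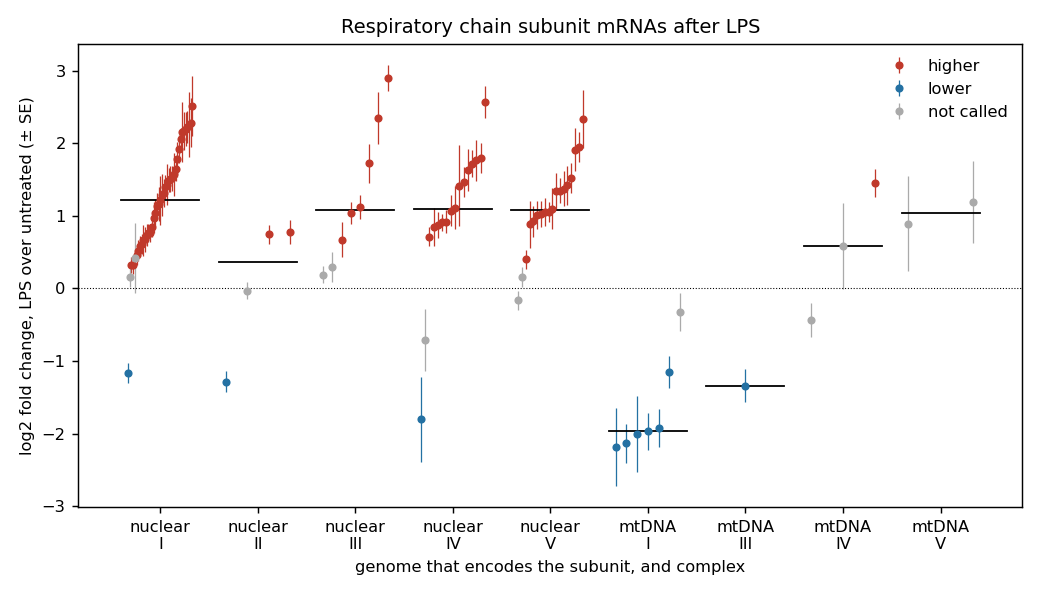
Log2 fold change of LPS over untreated libraries (y axis, with standard error) for each of the 98 tested subunit genes, grouped on the x axis by encoding genome and complex; black lines are medians, red and blue points passed the test. The nuclear medians of complexes I, III, IV and V lie between 1.08 and 1.21, that of complex II at 0.36, and that of the mitochondrial complex I genes at -1.97.

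Nuclear complex I genes rose almost throughout, with 36 of 39 tested higher, 1 lower and a median log2 fold change of 1.21. Complex I is the entry point for NADH and the largest of the complexes. The accessory subunit Ndufb4 had 30.4, 48.4, 44.4 and 34.5 CPM in the untreated libraries, 234, 222, 158 and 155 in the LPS libraries and 385, 97.8, 200 and 416 in the ferulic acid libraries. All LPS-treated libraries lay above all untreated ones, and ferulic acid libraries 1 and 4 lay above the LPS range while library 2 lay below it. Its log2 fold change with LPS was 2.29 ± 0.34 (SE; edgeR adjusted p = 1.18e-05). The copies Ndufb4b and Ndufb4c had log2 fold changes of 2.26 and 2.52, at levels under 5 CPM in every untreated and LPS library. Every 100-base window of Ndufb4c also occurs in Ndufb4 transcripts, while 16.0% of the windows of Ndufb4 occur in Ndufb4c, so Ndufb4c is uncertain as a gene of its own.

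The only tested nuclear complex I gene called lower on the TMM scale was Ndufs1. It encodes the largest core subunit, a carrier of iron-sulfur clusters in the NADH-oxidising arm. Ndufs1 stood at 73.3, 67.4, 73.2 and 77.6 CPM in untreated libraries, at 30.9, 38.1, 33.4 and 27.4 in LPS libraries and at 41.1, 33.6, 32.1 and 44.4 in ferulic acid libraries. The untreated libraries did not overlap with either treated group. Its log2 fold change was -1.17 ± 0.14 (SE; edgeR adjusted p = 1.3e-06). The call held in 25 of 25 alternatives, with values from -2.07 to -0.47, for a gene of 8086 bases. Over all complexes, 15 nuclear subunit genes were lower with library size scaling and 13 with the length trend removed. Ndufv3 (0.16) and Ndufs6b (0.42) did not pass the test.

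Complex II split between its subunits. It oxidises succinate through the flavoprotein Sdha and the iron-sulfur protein Sdhb, which Sdhc and Sdhd anchor in the inner membrane. Sdha fell from 203, 190, 193 and 192 CPM in untreated libraries to 65.6, 83.9, 92.8 and 76.9 in LPS libraries, and stood at 86.7, 114, 79.0 and 99.9 in ferulic acid libraries. The treated libraries all lay far below the untreated ones, with a log2 fold change of -1.28 ± 0.14 (SE; edgeR adjusted p = 4.72e-07) for LPS.

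Sdhb, by contrast, rose from 141, 172, 157 and 130 CPM to 258, 268, 249 and 252 with LPS, a log2 fold change of 0.77 ± 0.17 (SE; edgeR adjusted p = 0.000507). Sdhc rose by 0.75 ± 0.13 (SE; edgeR adjusted p = 5.26e-05), from 128, 139, 130 and 125 to 218, 199, 235 and 223 CPM. Neither gene's LPS libraries overlapped with its untreated ones, but both values turned negative with library size scaling, at -0.12 for Sdhb and -0.15 for Sdhc. Sdhd differed by -0.03 ± 0.12 (SE) and did not pass the test, but was called lower with library size scaling, at -0.93, with the length trend removed, at -0.68, and with limma on FPKM. The summed complex II mRNAs took 0.0970% ± 0.00320 (SD, n = 4) of counted reads in untreated libraries and 0.0584% ± 0.00411 (SD, n = 4) in LPS libraries. The mean share of each other nuclear complex was larger with LPS. For complex V the ranges overlapped, at 0.504% to 0.602% in untreated and 0.570% to 0.608% in LPS libraries. On the TMM scale the complex II sum was higher with LPS, at 716 ± 19.2 CPM (SD, n = 4) against 639 ± 32.0 (SD, n = 4).

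Complex III had 6 of 8 tested nuclear genes higher and none lower, with a median of 1.08. Uqcrq, a small subunit that binds ubiquinone, changed most of all nuclear subunit genes. It had 83.2, 112, 108 and 81.6 CPM in untreated libraries, 763, 742, 701 and 675 in LPS libraries and 827, 514, 791 and 814 in ferulic acid libraries. No treated library came near the untreated range, and the log2 fold change was 2.90 ± 0.18 (SE; edgeR adjusted p = 3.11e-10). Uqcrb rose by 2.34 ± 0.36 (SE; edgeR adjusted p = 1.63e-05) and Uqcr10 by 1.72 ± 0.27 (SE; edgeR adjusted p = 1.93e-05). Uqcrfs1, the Rieske iron-sulfur protein, had a log2 fold change of 0.19 and Uqcr11 one of 0.29, and neither passed the test. In FPKM both were lower with LPS without overlap. Uqcrfs1 had 139 to 158 in untreated and 88.5 to 94.8 in LPS libraries, and Uqcr11 had 86.4 to 124 and 58.5 to 72.2.

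Complex IV had 14 of 16 tested nuclear genes higher and 1 lower, with a median of 1.09. Several of its subunits exist as a ubiquitous and a tissue-restricted form. Cox4i1, the ubiquitous form, had 366, 477, 448 and 352 CPM in untreated, 1308, 1188, 1011 and 1031 in LPS and 1255, 613, 1246 and 1166 in ferulic acid libraries. All LPS libraries exceeded all untreated ones by a wide margin, with a log2 fold change of 1.47 ± 0.20 (SE; edgeR adjusted p = 5.72e-06). Its paralog Cox4i2, known from lung and as induced by hypoxia, fell by 1.80 ± 0.58 (SE; edgeR adjusted p = 0.0105), but at levels from 0.977 to 2.02 CPM in untreated and from 0.0496 to 0.661 in LPS libraries. The difference between the fold changes of the paralogs was not tested.

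Both forms of Cox6a rose. Cox6a1, the form found in most tissues, went from 112, 162, 146 and 116 CPM to 571, 476, 394 and 418, a log2 fold change of 1.79 ± 0.21 (SE; edgeR adjusted p = 8.84e-07). Cox6a2, the heart and skeletal muscle form, went from 1.82, 1.70, 2.28 and 2.86 to 14.9, 14.5, 11.8 and 10.5, with 2.57 ± 0.22 (SE; edgeR adjusted p = 1.98e-08). The groups did not overlap for either gene. Cox7c rose by 1.76, Cox8a by 1.72, Ndufa4 by 1.63, Cox5b by 0.92, Cox7a2l by 0.91, Cox6b1 by 0.87, Cox7a2 by 0.84 and Cox5a by 0.71, each past the test, although with library size scaling Cox6b1, Cox7a2 and Cox5a turned to -0.028, -0.059 and -0.18. Cox5b and Cox7a2l lost their calls with that scaling, at 0.018 and 0.017, and with limma on FPKM. The muscle form Cox7a1, at 0.466 to 1.79 CPM over untreated and LPS libraries, had a value of -0.71 ± 0.43 (SE) that did not pass, but was called lower in 5 of 24 alternatives, library size scaling among them.

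Of the 4 subunit genes that the filter left out, 3 belong to complex IV and 1 to complex I. Over all 12 libraries Cox8b had 2 reads, Cox7b2 had 4 and Ndufb11b had 6, and Ndufa4l2 had 113. None of these genes exceeded 0.557 CPM in any library.

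**Figure D2:**
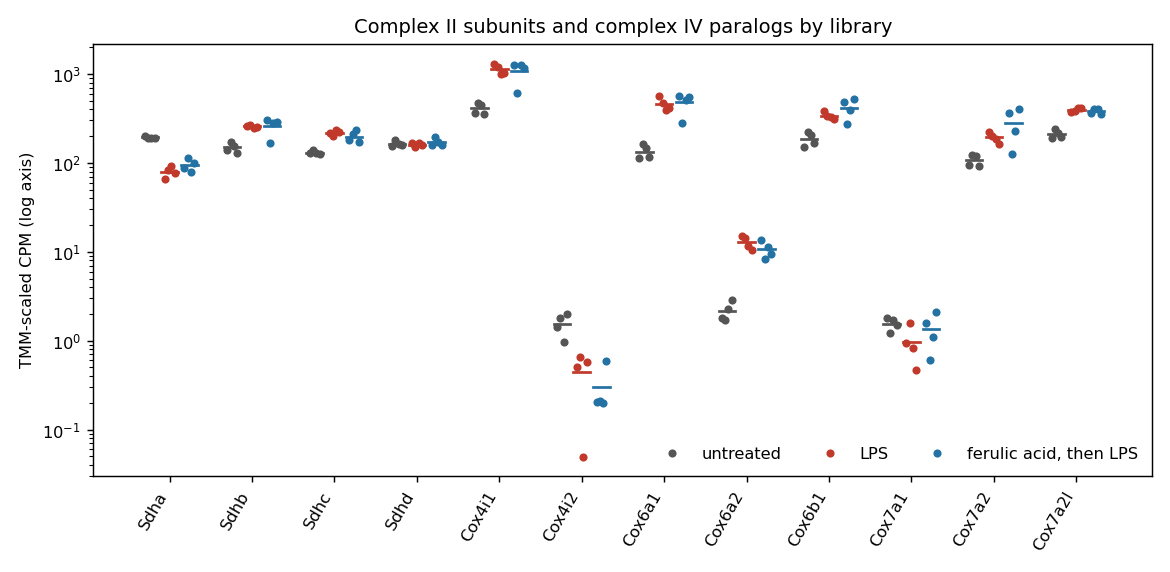
TMM-scaled CPM (y axis, log scale) in each library for the complex II subunits and the complex IV paralogs; points are libraries and short lines are group means. Sdha lies at 190 to 203 CPM in untreated and at 65.6 to 92.8 in LPS libraries, while Sdhb, Sdhc, Cox4i1 and Cox6a1 lie higher with LPS.

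ATP synthase had 16 of 18 tested nuclear genes higher and none lower, with a median of 1.08. Atp5mk, a small membrane subunit that holds ATP synthase dimers together, had 47.8, 72.6, 69.2 and 56.7 CPM in untreated, 376, 379, 262 and 226 in LPS and 797, 159, 358 and 1003 in ferulic acid libraries. The LPS libraries all exceeded the untreated ones, and the ferulic acid libraries spread to both sides of the LPS range. Its log2 fold change with LPS was 2.33 ± 0.40 (SE; edgeR adjusted p = 5.55e-05). Atp5f1d, the delta subunit of the central stalk, rose by 1.95 ± 0.20 (SE; edgeR adjusted p = 2.12e-07), and Atp5mg, the membrane subunit g, by 1.91 ± 0.30 (SE; edgeR adjusted p = 2.06e-05). Atp5if1, the inhibitor that blocks ATP hydrolysis by the enzyme, rose by 1.34 ± 0.25 (SE; edgeR adjusted p = 0.00011), a call lost with library size scaling, at 0.44, and with limma on FPKM. The catalytic-head subunit Atp5f1a (0.16) and the ring subunit gene Atp5mc3 (-0.16) did not pass the test. In FPKM both were lower with LPS without overlap. Atp5f1a had 378 to 414 in untreated and 205 to 271 in LPS libraries, and Atp5mc3 had 91.5 to 110 and 43.1 to 51.4.

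The mitochondrial mRNAs of complex I fell, with 6 of 7 lower, and so did mt-Cytb, the mitochondrial subunit of complex III. In FPKM, reads scaled to gene length and to the total count of the library, mt-Nd1 had 4499, 4786, 5304 and 4337 in untreated, 606, 669, 484 and 544 in LPS and 902, 415, 618 and 986 in ferulic acid libraries. Every treated library was far below every untreated one. On the TMM scale its log2 fold change with LPS was -2.13 ± 0.27 (SE; edgeR adjusted p = 2.03e-06). The values of the other genes called lower were -2.19 for mt-Nd4l, -2.01 for mt-Nd3, -1.97 for mt-Nd6, -1.92 for mt-Nd2, -1.34 for mt-Cytb and -1.15 for mt-Nd5. For mt-Nd4 the value was -0.32 ± 0.26 (SE), which did not pass, although its FPKM of 342 to 521 in LPS libraries lay below the 977 to 1079 of untreated ones, and it was called lower in 6 of 25 alternatives, among them library size scaling, at -1.23.

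The core catalytic subunit of complex IV moved the other way. The mt-Co1 mRNA had 12333, 14967, 13910 and 12862 FPKM in untreated, 18980, 23765, 18713 and 17691 in LPS and 24079, 18475, 19903 and 23177 in ferulic acid libraries. All treated libraries were above all untreated ones, with a log2 fold change on the TMM scale of 1.45 ± 0.19 (SE; edgeR adjusted p = 3.18e-06). It took 2.09% ± 0.180 (SD, n = 4) of counted reads in untreated and 3.06% ± 0.419 (SD, n = 4) in LPS libraries. The share of the mt-Nd genes and mt-Cytb together went from 1.83% ± 0.105 (SD, n = 4) to 0.361% ± 0.0479 (SD, n = 4). The directions thus differed between genes of the mitochondrial genome.

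**Figure D3:**
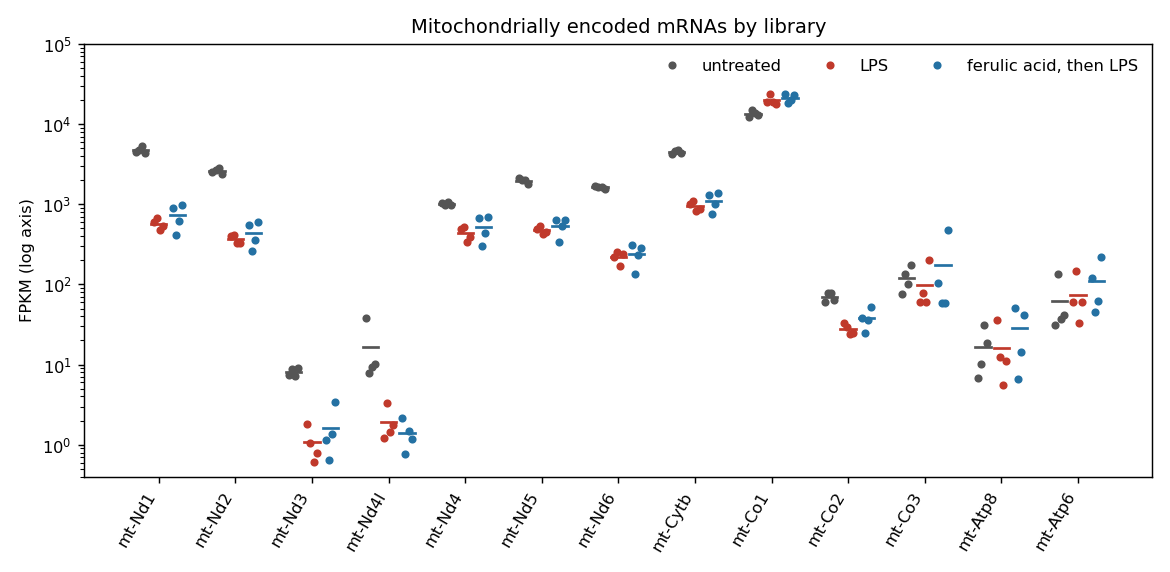
FPKM (y axis, log scale) of the 13 mitochondrially encoded mRNAs in each library; points are libraries and short lines are group means. The LPS and ferulic acid libraries lie below the untreated ones for mt-Nd1, mt-Nd2, mt-Nd5, mt-Nd6 and mt-Cytb, and above them for mt-Co1.

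The remaining mitochondrial genes, mt-Co2, mt-Co3, mt-Atp6 and mt-Atp8, did not pass the test with LPS, at -0.43, 0.59, 1.19 and 0.89, and mt-Co3 and mt-Atp8 turned negative with library size scaling, at -0.30 and -0.039. Of these, mt-Co2 was called lower in 9 of 25 alternatives, among them library size scaling, at -1.34, and mt-Atp6 was called higher in 10 of 25, among them the replicate block (edgeR adjusted p = 0.0428) and only the 2 groups compared (edgeR adjusted p = 0.014). Their levels were far below that of mt-Co1. In untreated libraries mt-Co1 had 13518 ± 1167 FPKM (SD, n = 4), mt-Nd1 4732 ± 425 and mt-Cytb 4518 ± 260, against 122 ± 43.0 for mt-Co3, 70.5 ± 9.13 for mt-Co2, 61.3 ± 49.3 for mt-Atp6, 16.6 ± 10.7 for mt-Atp8, 16.4 ± 14.5 for mt-Nd4l and 8.08 ± 0.878 for mt-Nd3. Of these 6 low genes, 5 have a nuclear copy that is annotated as a gene of its own. The share of 100-base windows that occur exactly in transcripts of another annotated gene was 99.9% for mt-Co3, 99.5% for mt-Co2 and mt-Atp6, 98.5% for mt-Nd4l and 97.6% for mt-Nd3. It was 60.8% for mt-Nd4, 30.8% for mt-Co1 and 3.20% for mt-Nd2, and 0% for mt-Nd1, mt-Nd5, mt-Nd6, mt-Cytb and the low gene mt-Atp8. The annotation used for this comparison was GENCODE M21 on GRCm38, not the GRCm39 build that the submitters' processing notes list.

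**Figure D4:**
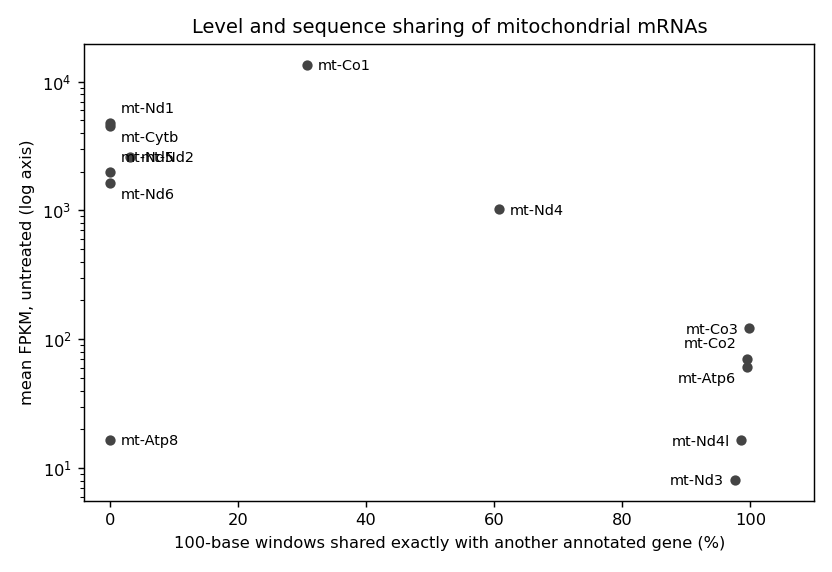
Mean FPKM in untreated libraries (y axis, log scale) against the percentage of 100-base windows that each mitochondrial mRNA shares exactly with transcripts of another annotated gene (x axis); each point is 1 gene. The 5 genes above 97% sharing lie at or below 122 FPKM, and mt-Atp8 is the low gene without sharing.

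The stretch below, bases 241 to 360 of mt-Co2 on the mitochondrial chromosome and the same bases of its copy Gm28661 on chromosome 1 (GENCODE M21, GRCm38), is shown because a read of these bases matches both. It holds 0 differences.
mt-Co2: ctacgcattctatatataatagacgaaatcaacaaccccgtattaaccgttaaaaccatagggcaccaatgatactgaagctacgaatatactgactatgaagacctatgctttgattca
Gm28661: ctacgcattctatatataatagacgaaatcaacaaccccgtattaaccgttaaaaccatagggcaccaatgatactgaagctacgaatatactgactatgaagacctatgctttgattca

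The sources used here do not give how reads with more than 1 match were counted. Over the 4 untreated libraries mt-Co2 had 7612 reads and Gm28661 had 5205, and mt-Nd3 had 436 against 9278 for its copy Gm28438. With the reads of each copy added to its mitochondrial gene, an alternative chosen after seeing the data, the log2 fold changes with LPS were -2.68 for mt-Nd4l, -2.56 for mt-Nd3, -0.41 for mt-Co2, 0.54 for mt-Co3 and 1.28 for mt-Atp6 (edgeR adjusted p = 0.0124 for mt-Atp6, which then passed). The values of mt-Co2, mt-Co3, mt-Atp6, mt-Nd3 and mt-Nd4l therefore describe what the table assigned to these names. The same limit holds in part for mt-Nd4 and mt-Co1, which share 60.8% and 30.8% of their windows. With the reads of 1 copy added to each, their values were -0.32 and 1.45.

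Nuclear subunit genes were less affected by shared sequence. Of 88 found in the annotation, 1 had at least 50% and 14 had at least 10% of its windows in another gene.

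The promoters of nuclear subunit genes were searched for motifs of factors known to regulate them, because most of these genes moved in the same direction with LPS. The motifs were NRF1 (GCGCA, any base N, then GCGC), GABP (CCGGAAG) and YY1 (AAGATGGCG), read on both strands in windows from 250 bases before to 50 after each RefSeq gene start (GRCm38.p6), and 68 of 89 genes matched a window by symbol. NRF1 letters were found for 17 of 68 subunit genes (25.0%) against 5.19% of 27025 genes, GABP letters for 16 (23.5%) against 9.93%, and YY1 letters for 7 (10.3%) against 1.64%. Among the 59 matched genes that were higher with LPS, 14 (23.7%) held the NRF1 letters, as did 2 of the 6 (33.3%) that did not pass the test. GABP letters were in 14 of these 59 and 2 of the 6, and YY1 letters in 7 and 0. For comparison, an NF-kB motif (GGG, NN, then TTTCC), of the main LPS-activated factor, was found for 1 of 68 (1.47%) against 1.89%. The common CCAAT letters were found for 28 (41.2%) against 41.1%. The 27025 genes were not limited to expressed ones, and no share was tested.

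The 250 bases before the starts of 3 genes are shown, all on the minus strand with NRF1 letters in capitals and, in Cox6a1, also the GABP letters nearest the start on the opposite strand: Ndufb4 at chr16:37654369-37654618, Sdha at chr13:74350241-74350490 and Cox6a1 at chr5:115348959-115349208. Ndufb4 and Sdha each hold 3 NRF1 matches although the first rose and the second fell with LPS.
Ndufb4: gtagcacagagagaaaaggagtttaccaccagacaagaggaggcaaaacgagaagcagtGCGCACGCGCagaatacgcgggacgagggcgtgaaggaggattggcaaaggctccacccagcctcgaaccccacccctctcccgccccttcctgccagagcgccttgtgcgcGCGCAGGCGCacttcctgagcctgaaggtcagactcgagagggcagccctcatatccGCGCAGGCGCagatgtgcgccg
Sdha: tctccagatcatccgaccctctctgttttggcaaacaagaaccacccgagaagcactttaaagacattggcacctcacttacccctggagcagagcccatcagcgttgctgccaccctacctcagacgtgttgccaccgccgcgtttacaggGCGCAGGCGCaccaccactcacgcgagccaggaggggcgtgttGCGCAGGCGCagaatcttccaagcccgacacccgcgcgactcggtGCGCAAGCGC
Cox6a1: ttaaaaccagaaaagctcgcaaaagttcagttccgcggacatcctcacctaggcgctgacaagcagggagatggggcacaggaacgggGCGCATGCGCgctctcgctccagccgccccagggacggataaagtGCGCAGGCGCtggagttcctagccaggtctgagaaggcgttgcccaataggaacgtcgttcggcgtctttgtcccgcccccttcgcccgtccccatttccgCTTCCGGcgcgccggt

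Genes that assemble the complexes, carry electrons between them or express mitochondrial DNA were followed as lists, whose counts stand against the 35.6% of all genes higher and 38.3% lower and the median of -0.10 with LPS. All list values are on the TMM scale, and the lists were not followed under other scalings. With library size scaling the median over all tested genes was -0.99, so the rises in these lists depend on the scaling. Of 17 complex I assembly factors, 9 were higher and 5 lower with LPS (median log2 fold change 0.69), led by Ndufaf3 at 2.10 and Tmem186 at -3.01. Of 24 complex IV assembly factors, 17 were higher and 3 lower (median 0.77), and Cox17, the copper chaperone of the complex, went from 30.7, 42.0, 37.7 and 42.6 CPM to 590, 466, 469 and 433, a log2 fold change of 3.68 ± 0.18 (SE; edgeR adjusted p = 1.61e-11). The remaining assembly lists had 3 of 4 higher for complex II, 5 of 9 higher and 1 lower for complex III, and 3 of 5 higher for complex V.

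The list for mitochondrial DNA replication, transcription and RNA handling had 6 of 29 tested genes higher, 15 lower and a median of -0.46. Twnk, the replicative helicase of mitochondrial DNA, fell from 38.8, 37.1, 36.5 and 36.0 CPM to 4.35, 2.92, 4.63 and 4.80, a log2 fold change of -3.15 ± 0.21 (SE; edgeR adjusted p = 1.16e-09). Mgme1, a nuclease needed for its replication, fell by 2.65 on the log2 scale. Fastk, which in its mitochondrial form is known to stabilise the mt-Nd6 mRNA, rose by 2.50. The mitochondrial ribosomal RNAs were also higher, with 1.66 for mt-Rnr1 and 0.84 for mt-Rnr2, in libraries selected for poly(A).

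Electron carriers and their partner enzymes held 14 higher and 6 lower of 27 (median 0.32). Sqor, which passes electrons from sulfide to ubiquinone, had 3.22, 4.66, 4.38 and 3.41 CPM in untreated and 282, 272, 287 and 267 in LPS libraries, a log2 fold change of 6.14 ± 0.17 (SE; edgeR adjusted p = 2.07e-14). Coq8a, needed for ubiquinone synthesis, fell by 3.17. Among 10 tested nuclear regulators of mitochondrial genes, 4 were higher and 5 lower, including Esrra at 1.96, Sirt3 at 1.55, Ppargc1b at -1.38 and Gabpa, the DNA-binding subunit of GABP, at -1.01. Mitochondrial chaperones and turnover genes had 6 of 14 higher and 5 lower, with the protease gene Clpp at 2.05 and the mitophagy receptor Bnip3 at -2.45.

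Ferulic acid before LPS was compared with LPS alone. No subunit gene of 98 passed the test, where 0.284% of all 14065 genes did (0.0853% higher and 0.199% lower), and 13 had an unadjusted p under 0.05. No subunit gene had groups without overlap, against 7.02% of all genes. DESeq2 called none of the 98 either. The nuclear median was 0.23 and the mitochondrial median 0.32, against 0.02 over all genes. The smallest adjusted p of any subunit gene was 0.128, for Ndufv3, which had 89.4, 74.8, 81.9 and 88.5 CPM in LPS and 66.0, 56.6, 79.1 and 47.2 in ferulic acid libraries. These ranges overlap, and the log2 fold change was -0.43 ± 0.15 (SE).

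The ferulic acid libraries differed among themselves more than the LPS libraries did. The median level of nuclear subunit genes, relative to the untreated mean on the log2 scale, was 1.67, 0.67, 1.17 and 1.66 in the ferulic acid libraries and 1.30, 1.18, 0.99 and 0.90 in the LPS libraries. Ferulic acid libraries 1 and 4 lay above the LPS range and library 2 below it. The medians of cytosolic ribosomal protein genes took the same order within the ferulic acid group except for libraries 1 and 4, with 2.03, 1.22, 1.70 and 2.06, against 1.80, 1.64, 1.61 and 1.48 in the LPS libraries. Their part in the result was not tested.

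Calls in this comparison changed with the libraries and the filter. Without ferulic acid library 2, 36 subunit genes were higher than with LPS alone and none lower, where 9.21% of all genes were higher and 9.22% lower. Without library 3, 2 subunit genes were lower (Ndufv1 and Ndufv3) and none higher, where 4.89% of all genes were higher and 4.87% lower. Without libraries 2 and 3, 53 were higher and 9 lower, where 17.9% of all genes were higher and 19.9% lower. Without libraries 1 and 4 no subunit gene was called, and the nuclear median was -0.13. These pairs follow the split already seen in the nuclear medians and on the second principal component. Counts with either pair left out are therefore not independent of that split. With all 12 libraries and no low-count filter, 6 subunit genes were higher (Ndufb1, Atp5mk, Uqcrb, Atp5mj, Ndufa4 and mt-Co3), where 1.72% of all genes were higher and 1.14% lower. Ndufb1, an accessory subunit of complex I, shows the spread: its CPM were 133, 102, 83.7 and 72.5 in LPS and 246, 56.3, 106 and 388 in ferulic acid libraries. Its log2 fold change over all libraries was 1.03 ± 0.40 (SE; edgeR adjusted p = 0.155). The 95% intervals of mt-Nd1, -0.15 to 0.95, and of mt-Co1, -0.25 to 0.54, both included 0.

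**Figure D5:**
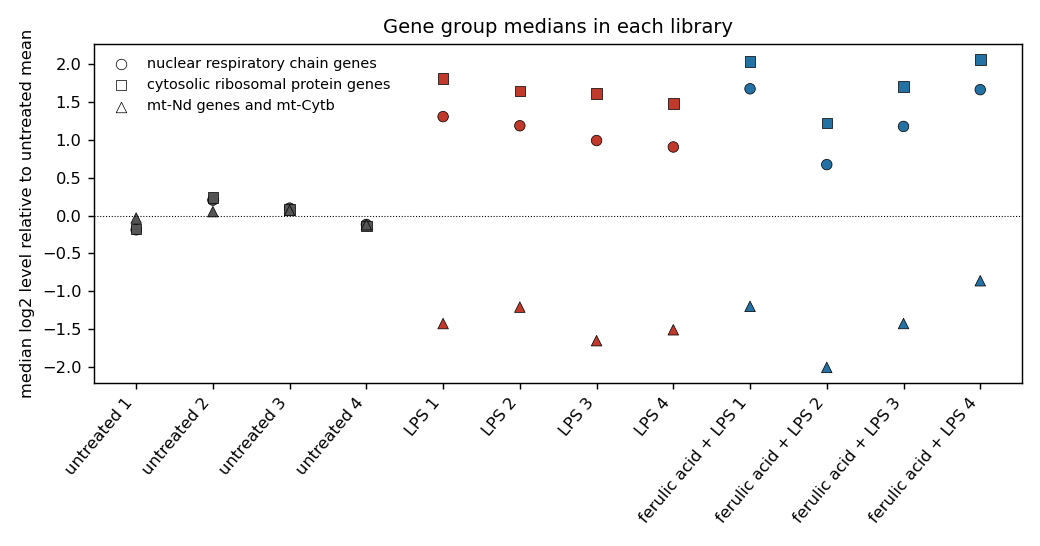
Median log2 level of nuclear subunit genes (circles), cytosolic ribosomal protein genes (squares) and mt-Nd genes with mt-Cytb (triangles) in each of the 12 libraries (x axis), relative to the untreated mean (y axis). Circles lie at 0.90 to 1.30 in LPS and at 0.67 to 1.67 in ferulic acid libraries, and the triangles lie below 0 in all of them.

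Against untreated cells, the ferulic acid group had 77 subunit genes higher and 10 lower, where 73.3% of all genes were called, 35.8% higher and 37.5% lower. The nuclear median was 1.41 and the mitochondrial median -0.93. This comparison shares its untreated libraries with the LPS comparison, so the 2 sets of values are not independent. Sdha had a log2 fold change of -1.04, Ndufs1 of -0.95, mt-Nd1 of -1.74 and mt-Co1 of 1.59. The genes mt-Co3 (1.53), mt-Atp6 (1.84) and mt-Atp8 (1.74) passed the test here, with edgeR adjusted p-values of 0.0305, 0.00818 and 0.0245, and ranges of CPM that overlapped with the untreated ones. These calls were not stable, and that of mt-Co3 held in 15 of 25 alternatives. It was lost with DESeq2, library size scaling and the length trend removed, and without ferulic acid library 4 or untreated library 1, 2 or 3. The sign of mt-Co3 changed with both limma settings and without ferulic acid libraries 1 and 4. The call of mt-Atp8 held in 14 of 24. It was lost with library size scaling, both limma settings and the replicate block. Leaving out ferulic acid library 1, 4 or both, or untreated library 1 or 2, also lost it. With the length trend removed, the value of mt-Atp8 turned to -0.49. That of mt-Atp6 held in 20 of 25. It was lost with library size scaling, the length trend removed, both limma settings and without ferulic acid libraries 1 and 4. Ndufs1 lost its call with the length trend removed, at -0.24.

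Gene length was set against the fold changes. Spearman's rho of length and LPS fold change was -0.16 across 85 nuclear subunit genes and -0.35 across all tested genes, as a description across genes of the same libraries. For ferulic acid with LPS over LPS it was -0.25 across the subunit genes and -0.047 across all genes. The 43 shorter nuclear genes, up to 1495 bases, had a median of 1.32 and the 42 longer ones a median of 1.04. With the length trend over all genes removed, the nuclear median was 0.64, with 58 nuclear genes higher and 13 lower.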

How the data were processed

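The authors deposited 1 table of read counts and FPKM per gene for 12 libraries, per the file headers. Per the submitters' processing notes, the tools named were HISAT2 2.2.1, fastp 0.23.4, edgeR 3.36.0, DESeq2 1.34.0 and featureCounts 2.0.6, and the build was GRCm39; the strand setting and annotation release are not given in the sources used here. The deposited FPKM equal the counts divided by gene length and total count. Counts of all genes were filtered (edgeR filterByExpr; 14065 kept, 11127 left out holding 0.0421% of reads), scaled by TMM and tested with edgeR 4.0.16 (R 4.3.3) over the 3 groups in 1 fit, without the replicate number. CPM and fold changes come from that fit. Alternatives used DESeq2 1.42.0 and limma 3.58.1. The edgeR step was tested on simulated data in which most genes were unchanged. That test could not address the scaling where most genes change, as here.

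Members and gene lists were chosen with earlier results of these data known. Genes named are the mitochondrial mRNAs, the Sdh genes, the paralog sets of complex IV and Atp5if1, whatever their result; up to 3 rises and 3 falls per nuclear complex (where none was called, the 2 smallest p-values); and up to 2 of each per other list. Members that did not pass the test, Ndufb4's copies, and the examples of single libraries are named beyond this rule where a count is accounted for. Libraries of 1 group were not stated to be separate cultures, so p-values measure the spread between libraries, which may be technical. Deviations of same-numbered libraries correlated at -0.37 to 0.19 over the pairs. Not all of them were above 0.1, so the numbers were taken as names.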

Additional observations from a re-analysis of the deposited data

Results flagged for a closer look

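Within groups of 4 libraries, 10 of 150 gene and group combinations held a library whose gap to the nearest other was above Dixon's critical share of the whole range, and chance flags about 1 in 20 groups. For mt-Nd4l, untreated library 1 had 7.38 CPM against 1.57 to 1.96 in the others (gap ratio 0.933). For mt-Atp6, untreated library 2 had 61.7 against 13.9 to 18.3 (0.908). For mt-Co3, LPS library 4 had 185 against 55.1 to 75.4 (0.843), and ferulic acid library 4 had 513 against 47.4 to 108 (0.870). Ferulic acid library 2 was the lowest for Sdhb, at 167 CPM against 281 to 304 (0.830), Cox4i1, at 613 against 1166 to 1255 (0.862), Uqcrq, at 514 against 791 to 828 (0.884), and Atp5f1d, at 319 against 575 to 626 (0.834). For Cox4i2, ferulic acid library 4 had 0.588 CPM against 0.198 to 0.210 (0.969), and for Cox5b, LPS library 1 had 176 against 138 to 144 (0.843).

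The 11 rows named as pseudogenes of subunit genes were outside the comparisons. Of these, 6 were higher with LPS, where 35.6% of all tested genes were. Atp5k-ps2 (0.38) and Cox7c-ps1 (1.11) did not pass the test, and Uqcrh-ps1, Uqcrh-ps2 and Atp5l-ps2 did not pass the low-count filter. The log2 fold changes of the 6 were 3.42 for Atp5l-ps1, 2.53 for Atp5l2-ps, 2.14 for Ndufs5-ps, 1.77 for Ndufa12-ps, 1.10 for Cox5b-ps and 0.903 for Atp5pb-ps. Ndufa12-ps had the highest level, with a mean of 31.5 CPM in untreated and 107 in LPS libraries. Atp5l-ps1 and Ndufs5-ps were near the floor, with means of 0.587 and 0.384 CPM in LPS libraries. Each of the 6 shares exact sequence windows with a subunit gene that was also higher with LPS. Ndufa12-ps shares 179 windows with Ndufa12, Ndufs5-ps 115 with Ndufs5 and Atp5pb-ps 111 with Atp5pb. Cox5b-ps shares 62 with Cox5b, and Atp5l-ps1 and Atp5l2-ps share 72 and 13 with Atp5mg. Whether reads counted for these rows came from the subunit genes was not tested.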

How the results depend on the processing

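With LPS, 75 members were higher and 10 lower; library size scaling gave 34 and 24, limma on log2(FPKM + 1) and on log2(FPKM + 0.1) 33 and 24 each, and removal of the length trend 59 and 22. Against untreated cells, ferulic acid with LPS had 77 members higher and 10 lower, and 45 and 25 with library size scaling, 44 and 25 with either limma setting, and 20 lower with the length trend removed. For ferulic acid with LPS over LPS, where no member was called, 6 members were higher with no low-count filter, 53 were higher and 9 lower with ferulic acid libraries 2 and 3 left out, and leaving out 1 library at a time gave 0 to 36 higher and 0 to 2 lower. Its mt-Nd and mt-Cytb median of 0.29 became -0.29 with ferulic acid libraries 1 and 4 left out. With the replicate number as a block (replicate block), members called were 75 higher and 10 lower with LPS, none in the comparison of ferulic acid with LPS, and 75 higher and 10 lower against untreated cells. Over all genes, ferulic acid with LPS against LPS gave 40 calls with edgeR, 985 with DESeq2, 719 with no low-count filter and 0 with the replicate block. The causes of these differences were not tested. The log2 fold change of LPS over untreated changed sign as follows. With library size scaling, it was -0.30 for mt-Co3, -0.039 for mt-Atp8, -0.12 for Sdhb, -0.15 for Sdhc, -0.18 for Cox5a, -0.028 for Cox6b1 and -0.059 for Cox7a2. With the length trend removed, it was -0.35 for mt-Co3, -0.92 for mt-Atp8 and -0.19 for Cox6b1. With limma on log2(FPKM + 1), it was -0.42 for mt-Co3, -0.12 for mt-Atp8, -0.12 for Sdhb, -0.15 for Sdhc, -0.18 for Cox5a, -0.015 for Cox6b1 and -0.051 for Cox7a2. With limma on log2(FPKM + 0.1), it was -0.43 for mt-Co3, -0.14 for mt-Atp8, -0.12 for Sdhb, -0.15 for Sdhc, -0.18 for Cox5a, -0.015 for Cox6b1 and -0.051 for Cox7a2. With TMM factors from genes outside the ribosomal protein and respiratory chain lists, it was 0.0014 for Sdhd. Leaving out 1 library at a time took it across zero for Sdhd from -0.062 to 0.019. The log2 fold change of ferulic acid with LPS over LPS changed sign as follows. With ferulic acid libraries 1 and 4 left out, it was -0.25 for mt-Nd1, -0.34 for mt-Nd2, -0.13 for mt-Nd3, -0.34 for mt-Nd4, -0.21 for mt-Nd5, -0.36 for mt-Nd6, -0.22 for mt-Cytb, -0.15 for mt-Co1, -0.87 for mt-Co3, -0.57 for mt-Atp6, -0.72 for mt-Atp8, -0.20 for Sdhb, 0.013 for Sdhc, -0.091 for Ndufa4, -0.19 for Cox5b, -0.22 for Cox6a1, -0.024 for Cox6b1, -0.16 for Cox7a1, -0.13 for Cox7a2, 0.040 for Cox7a2l, -0.22 for Cox8a, -0.19 for Atp5if1, -0.20 for Uqcrb, -0.26 for Atp5mk, -0.27 for Ndufb1, -0.057 for Uqcrh, -0.013 for Cox7b and -0.10 for Atp5mj. With the length trend removed, it was -0.074 for mt-Nd6, -0.10 for Cox6a1 and -0.078 for Cox8a. With library size scaling, it was -0.016 for Sdhb. With limma on log2(FPKM + 1), it was -0.029 for Sdhb and -0.0046 for Cox6a1. With limma on log2(FPKM + 0.1), it was -0.029 for Sdhb and -0.0047 for Cox6a1. With ferulic acid libraries 2 and 3 left out, it was -0.024 for Sdhd and 0.081 for Cox4i1. Leaving out 1 library at a time took it across zero for mt-Nd3 from -0.020 to 1.10, mt-Nd6 from -0.0026 to 0.40, mt-Co3 from -0.43 to 1.49, Sdhb from -0.062 to 0.17, Cox4i1 from -0.17 to 0.10, Cox5b from -0.015 to 0.19, Cox6a1 from -0.046 to 0.23 and Cox8a from -0.015 to 0.24. The log2 fold change of ferulic acid with LPS over untreated changed sign as follows. With DESeq2, it was -0.0039 for mt-Nd4. With library size scaling, it was -0.96 for mt-Nd4, -0.90 for mt-Co2, -0.14 for Sdhb, -0.29 for Sdhc, -0.83 for Sdhd, -0.39 for Cox5a and -0.029 for Cox7a2l. With no low-count filter, it was -0.037 for mt-Nd4. With the replicate block, it was -0.067 for mt-Nd4. With the length trend removed, it was -0.64 for mt-Nd4, -1.21 for mt-Co2, -0.49 for mt-Atp8, -0.62 for Sdhd and -0.045 for Cox6b1. With limma on log2(FPKM + 1), it was -1.04 for mt-Nd4, -0.92 for mt-Co2, -0.030 for mt-Co3, -0.14 for Sdhb, -0.31 for Sdhc, -0.85 for Sdhd, -0.41 for Cox5a and -0.044 for Cox7a2l. With limma on log2(FPKM + 0.1), it was -1.04 for mt-Nd4, -0.93 for mt-Co2, -0.033 for mt-Co3, -0.15 for Sdhb, -0.32 for Sdhc, -0.85 for Sdhd, -0.42 for Cox5a and -0.045 for Cox7a2l. With ferulic acid libraries 1 and 4 left out, it was -0.66 for mt-Nd4, -0.39 for mt-Co2 and -0.28 for mt-Co3. With ferulic acid libraries 2 and 3 left out, it was -0.056 for Sdhd and 0.24 for Cox7a1. Leaving out 1 library at a time took it across zero for mt-Nd4 from -0.20 to 0.23, mt-Co2 from -0.20 to 0.24, Sdhd from -0.022 to 0.11 and Cox7a1 from -0.52 to 0.022. Low counts, as for Cox4i2, Cox7a1, mt-Nd3 and mt-Nd4l, limit what could be detected.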
